A study of Mus musculus with 20 samples.

Results

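The genes described here are 10 chemokines that cultured fibroblasts can secrete: Ccl2, Ccl5, Ccl7, Ccl8, Ccl9, Ccl11, Cxcl1, Cxcl5, Cxcl10 and Cxcl12. They were taken by symbol, through the transcript accession that the array gives for each probe, out of 20145 symbols named on the array. The 10 genes had 11 probes. Of the 10, 9 were well above background in at least 4 of the 20 samples and were tested, among 24241 genes and transcripts in all. Ccl11, an eosinophil attractant also known as eotaxin, was not well above background in any sample and was not tested. Ccl8 was well above background in 6 samples and Cxcl5 in 8, while the other 7 genes were so in all 20.

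The cells were mouse embryonic fibroblasts of a Balb/c background. In all groups they grew in serum-containing medium with added uridine, which supports cells whose respiratory chain fails, and were collected near confluence. Treated cells received 150 µM actinonin for 6, 24, 48 or 72 h, and the control received the ethanol carrier at 3 µl/ml, with a labelled time of 0 h. Actinonin inhibits peptide deformylase, which removes the formyl group from new proteins in bacteria and in mitochondria. Each of the 5 groups held 4 samples that the labels call independent, and each sample pooled RNA from 4 plates, so that a sample is a mean over plates. The labels do not say how long the carrier control was cultured, and time in culture cannot be told apart from time with actinonin.

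The samples were hybridised in pairs, in the dyes Cy3 and Cy5, on 10 arrays. Slide 1 held 2 carrier and 2 6 h samples, and slide 2 held the other 2 of each and all samples of 24, 48 and 72 h. On 9 arrays 50.8% to 58.7% of a sample's spots were well above background, against 66.4% and 70.5% on the array that held 1 carrier and 1 48 h sample. No spot of a chemokine probe was saturated. Of 12 fibroblast markers, 11 were well above background in all 20 samples and Lum in 7. Of 12 macrophage and leukocyte markers on the array, Ptprc, the pan-leukocyte marker, was well above background in no sample, nor were Fcgr1 and Laptm5, among others. Cd14, Csf1r, Itgam, Cd74 and Cd3e were so in all 20. Cdh5, the defining endothelial cadherin, and the epithelial keratin Krt8 were well above background in none, while Pecam1, Kdr, Krt5, Krt14 and Krt19 were so in all 20 and Vwf in 14.

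Chemokines are small secreted proteins that draw cells along a gradient through receptors coupled to G proteins. Fibroblasts make inflammatory chemokines when interleukin-1, tumour necrosis factor or microbial products reach them, largely through transcription factors of the NF-kB family, and interferons add a further arm that acts on Cxcl10. Cxcl12 differs from these: it is made by stromal cells without stimulation and retains stem cells and leukocytes that carry its receptor Cxcr4. Several of the genes lie side by side in the RefSeq annotation. Ccl2, Ccl7, Ccl11, Ccl12, Ccl8 and Ccl1 follow one another on chromosome 11, Ccl5 and Ccl9 are neighbours elsewhere on that chromosome, Cxcl1, Cxcl5 and Cxcl10 lie on chromosome 5 and Cxcl12 on chromosome 6.

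Promoter sequences are shown for Cxcl10, which rose early, and for Cxcl1 and Ccl9, which fell without an early call, because each holds a match to the kappaB motif, the site that NF-kB proteins recognise. RefSeq sequences of the assembly GRCm38.p6 were at hand for 5 of the 10 genes, the other 2 being Ccl8 and Cxcl12. Each run is the 250 bases before the annotated start, 5′ to 3′ on the gene's strand, and capitals mark kappaB matches on either strand, some of which overlap. The windows are chr5:92348890-92349139 on the minus strand for Cxcl10, chr5:90890995-90891244 on the plus strand for Cxcl1 and chr11:83578637-83578886 on the minus strand for Ccl9.
Cxcl10: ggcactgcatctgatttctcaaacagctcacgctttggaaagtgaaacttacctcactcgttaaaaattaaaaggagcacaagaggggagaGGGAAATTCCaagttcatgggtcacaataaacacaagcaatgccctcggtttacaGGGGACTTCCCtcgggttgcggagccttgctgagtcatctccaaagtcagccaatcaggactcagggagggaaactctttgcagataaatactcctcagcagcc
Cxcl1: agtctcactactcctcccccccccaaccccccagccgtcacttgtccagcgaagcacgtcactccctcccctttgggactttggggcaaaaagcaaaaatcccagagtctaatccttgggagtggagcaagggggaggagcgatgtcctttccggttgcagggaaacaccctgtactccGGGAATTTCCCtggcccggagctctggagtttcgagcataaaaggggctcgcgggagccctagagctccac
Ccl9: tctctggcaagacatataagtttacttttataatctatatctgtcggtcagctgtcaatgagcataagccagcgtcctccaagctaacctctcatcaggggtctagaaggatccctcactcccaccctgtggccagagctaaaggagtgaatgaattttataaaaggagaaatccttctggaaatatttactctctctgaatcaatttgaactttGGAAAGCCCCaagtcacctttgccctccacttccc
Of 32851 RefSeq promoter windows of this length, 7.25% held a kappaB match. The Cxcl10 window held 3 matches, of which 2 overlap, the Cxcl1 window 2 that overlap each other, the Ccl9 window 1 and the windows of Ccl8 and Cxcl12 0. Other motifs were searched on both strands. The AP-1 motif TGANTCA, found in 6.75% of windows, had 1 match in Cxcl10 and 1 in Ccl9. The interferon regulatory factor element AANNGAAA, in 21.3% of windows, had 1 match in Cxcl10 and 1 in Ccl8. The TATA box TATAAA, in 12.4% of windows, had 1 match in Ccl8 and 3 in Ccl9, of which 2 overlap. The GC box GGGCGG, in 32.7% of windows, had 5 matches in Cxcl12 and none in the other 4. The CCAAT box CCAAT, in 33.8% of windows, had 1 match in Cxcl10, and the cyclic AMP response element core TGACG, in 17.8%, had 2 in Cxcl1 and 1 in Cxcl12. A match describes the letters of the window and does not show that a factor binds there.

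Levels below are normalised log2 intensities of a gene's probe, and differences are log2 changes from one linear model over all 20 samples, ± standard error, with 4 samples per group. The model has terms for group, dye and slide, with the array as a random block, and its p-values are limma's, two-sided with Benjamini-Hochberg adjustment over the 24241 tested. A gene is called at an adjusted p under 0.05. Levels of different probes are not comparable, because probes differ in how brightly they hybridise.

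The time courses fell into 4 kinds rather than 1. Only Ccl2, Ccl7 and Cxcl10 were called higher at 6 h and lower at 24, 48 and 72 h. Ccl5 was called higher at all 4 times. Ccl9 and Cxcl1 were called lower from 24 h on, with changes of 0.08 ± 0.08 and 0.03 ± 0.08 at 6 h that missed the threshold. Cxcl12 was called lower at all 4 times. Ccl8 and Cxcl5 were near background and had 1 call each against carrier.

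At 6 h, 4 of the 9 tested chemokines were called higher and 1 lower, where 13.7% of all genes tested were called higher and 11.1% lower. At 24 h 1 was higher and 6 were lower (21.1% and 19.1% of all genes). At 48 h the counts were 1 and 7 (21.5% and 20.3%), and at 72 h again 1 and 7 (25.1% and 22.6%). The lower genes included Cxcl5 at 48 h and Ccl8 at 72 h, both near background, and Ccl8 passed the filter only through carrier and 6 h samples. With probes well above background in at least 10 samples, 7 chemokines were tested. Of these, 1 was higher and 6 were lower at each of 24, 48 and 72 h. In that setting 43.4%, 44.6% and 51.1% of all genes were called in either direction. The median change of the 9 was 0.08 at 6 h, -0.78 at 24 h, -0.94 at 48 h and -0.84 at 72 h, while the median of all genes tested lay within 0.01 of 0 at each time. These 4 comparisons share the carrier samples and are not independent of one another. A lower level in a pooled culture can reflect fewer cells that make the transcript or less of it per cell, which cannot be told apart here.

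**Figure D1:**
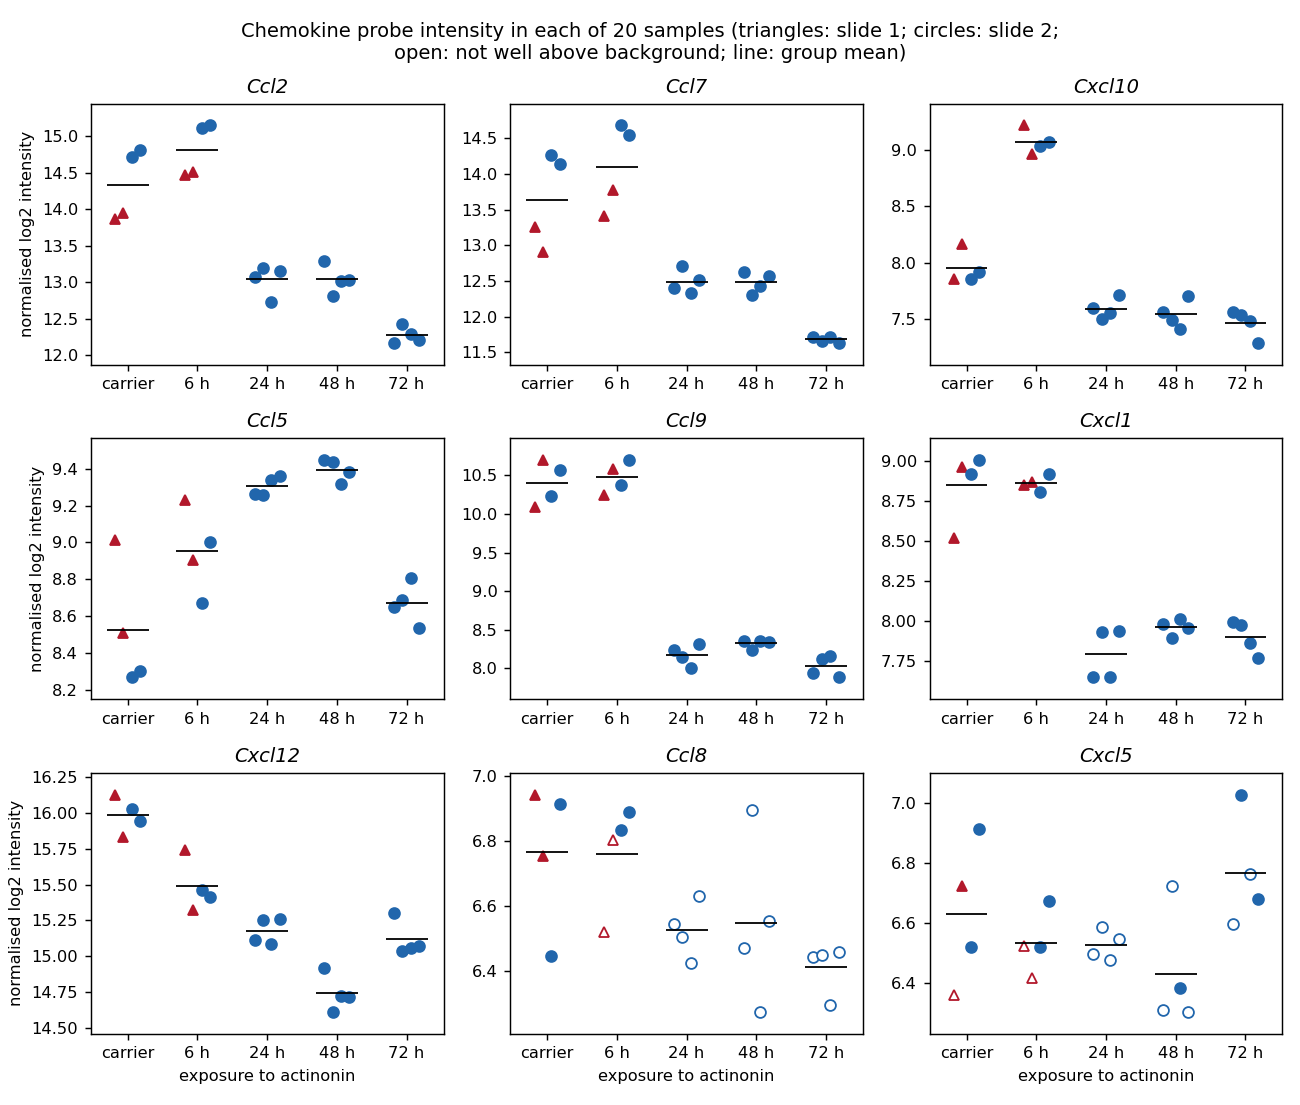
Normalised log2 intensity (vertical axis) of the 9 tested chemokines in each of the 20 samples by group (horizontal axis), with slide 1 as triangles, slide 2 as circles, open symbols where the probe was not well above background and a line at the group mean. The carrier and 6 h samples of Ccl2 and Ccl7 split by slide, all samples of these genes at 24, 48 and 72 h sit below them, and Cxcl10 stands highest at 6 h on both slides.

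Ccl2, the main monocyte attractant that acts through Ccr2, is measured here by 10 spots of 1 probe. Its levels were 13.86, 13.95, 14.72 and 14.80 in carrier samples and 14.46, 14.51, 15.11 and 15.14 at 6 h, 2 of each being on slide 1 and the higher 2 on slide 2. The levels were 12.73, 13.06, 13.15 and 13.20 at 24 h, 12.80, 13.02, 13.03 and 13.29 at 48 h and 12.17, 12.21, 12.29 and 12.42 at 72 h. All 12 later samples thus lay below all carrier and 6 h samples, and the 72 h samples below all others. The carrier and 6 h values overlapped as measured, and no longer did so with the fitted dye and slide terms taken out. As only carrier and 6 h samples lie on both slides, the slide term was fitted to these same values. Its removal narrows both groups, so the loss of overlap is not separate support for the rise.

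Ccl2 rose 1.40-fold at 6 h (0.49 ± 0.08, adjusted p = 0.000227). It was then 3.17-fold lower than carrier at 24 h (-1.67 ± 0.10, adjusted p = 4.75e-10), 3.17-fold lower at 48 h and 5.40-fold lower at 72 h (-2.43 ± 0.10, adjusted p = 2.15e-12). The spread among the 10 spots of a sample, an SD of 0.21 to 0.28, is that of the printed spots and not of the samples. From the highest to the lowest group its fitted level spanned 7.56-fold.

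Ccl7, also a monocyte attractant and the next gene on the chromosome, was measured by 1 spot. Its levels were 12.90, 13.25, 14.13 and 14.27 in carrier and 13.41, 13.78, 14.54 and 14.68 at 6 h. At 24 h they were 12.33, 12.40, 12.51 and 12.71, at 48 h 12.30, 12.43, 12.57 and 12.62, and at 72 h 11.63, 11.66, 11.71 and 11.72. Here too the samples of slide 1 were the lower pair in carrier and at 6 h, by more than the change under study, and all later samples lay below every carrier sample. The changes were 0.47 ± 0.09 at 6 h (adjusted p = 0.000778), -1.68 ± 0.11 at 24 h (adjusted p = 1.56e-09), -1.69 ± 0.10 at 48 h and -2.49 ± 0.11 at 72 h (adjusted p = 5.80e-12), so Ccl7 was 5.62-fold lower than carrier at the end. Without a slide term in the model the 6 h call for Ccl7 was lost (0.48, adjusted p = 0.0849), and so was its fall from 48 to 72 h (-0.58, adjusted p = 0.143).

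The fitted slide term was 0.75 for Ccl2 and 1.07 for Ccl7 (slide 2 minus slide 1), larger than their 6 h changes. Within slide 1, with 2 samples a group, the 6 h change was 0.58 ± 0.12 for Ccl2 and 0.51 ± 0.11 for Ccl7, and neither was called (adjusted p = 0.198 and adjusted p = 0.244, with 20 genes called in all). Within slide 2 the changes were 0.36 ± 0.12 and 0.42 ± 0.12, both called (adjusted p = 0.0464 and adjusted p = 0.0224). The difference of the 6 h change between the slides was not called for any of the 9 genes (adjusted p = 1.000 for each). Its size was -0.22 ± 0.16 for Ccl2 and -0.10 ± 0.19 for Ccl7, so it was measured too loosely to show that the slides agree. The falls at 24 h within slide 2, against its 2 carrier samples, were -1.73 ± 0.11 and -1.71 ± 0.11.

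Ccl8, another monocyte attractant protein of the same cluster, was well above background in the 4 carrier samples and in 2 samples of 6 h, and in no later sample. It thus passed the filter only through carrier and 6 h samples. That filter favours a lower call at later times, so such a call is weak support for a fall. Its carrier levels of 6.45, 6.76, 6.91 and 6.94 overlapped with those at 72 h, which were 6.29, 6.44, 6.45 and 6.46. Each later sample was also set to its own value or, if that was lower, to its dimmest signal above background. The mean of Ccl8 was then 1.18-fold below carrier at 24 h, 1.16-fold at 48 h and 1.24-fold at 72 h. These figures leave out the spread among samples and are not lower limits. In limma the 24 and 48 h changes missed the threshold (adjusted p = 0.101 and adjusted p = 0.0902). Only the 72 h change was called (-0.39 ± 0.13, adjusted p = 0.0180), and within slide 2 that call was lost (-0.31 ± 0.14, adjusted p = 0.0701), as it was without carrier replicate 2_Cy5 (-0.29, adjusted p = 0.120). Without carrier replicate 2_Cy3, the dimmest carrier sample, Ccl8 was also called lower at 24 h (-0.47, adjusted p = 0.00505) and 48 h (-0.45, adjusted p = 0.00350), and without 48 h replicate 2_Cy3 at 48 h (-0.34, adjusted p = 0.0187). That 48 h sample was the brightest of its group. Leaving out either sample widens the difference by itself, so these gained calls add no support for a fall. Ccl11, in the same cluster, had levels from 5.96 to 6.44 over the 20 samples, none well above background.

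**Figure D2:**
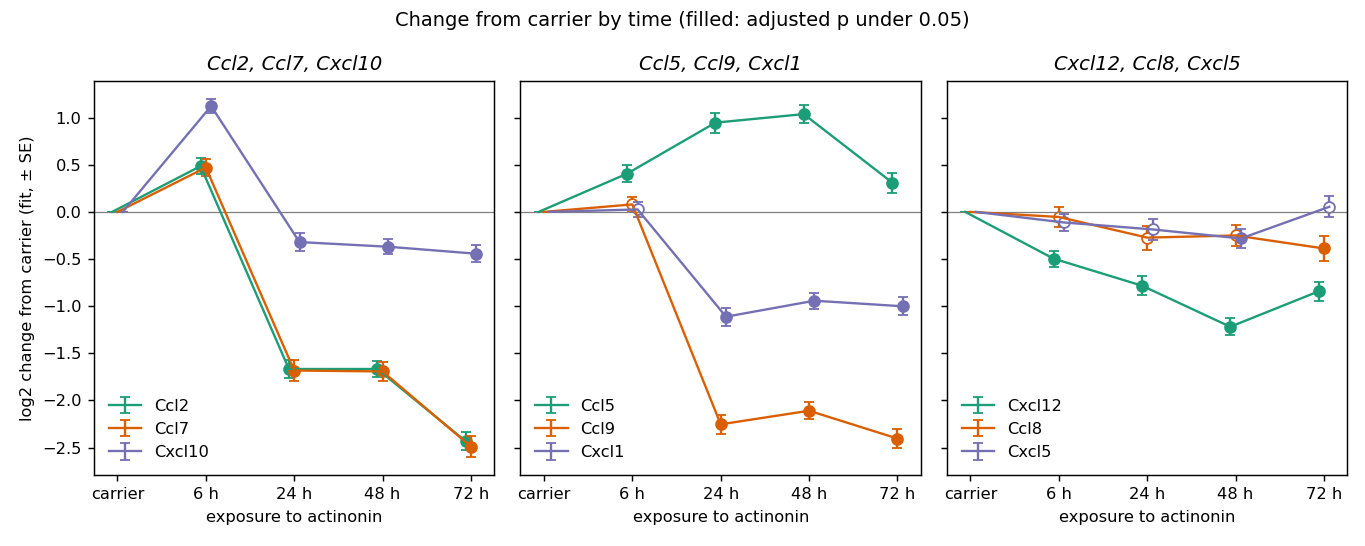
Fitted log2 change from carrier (vertical axis, ± standard error) at each time (horizontal axis) for the 9 tested chemokines, 3 to a panel, with filled points at an adjusted p under 0.05. Ccl2 and Ccl7 run nearly on top of one another from 0.49 and 0.47 at 6 h to -2.43 and -2.49 at 72 h, Cxcl10 peaks at 1.12 and Ccl5 stays above 0.

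Cxcl10, the interferon-inducible attractant of T cells that carry Cxcr3, showed the largest 6 h rise of the 9. Its levels were 7.86, 7.86, 7.92 and 8.17 in carrier and 8.97, 9.04, 9.08 and 9.22 at 6 h, with no overlap and no split by slide. They were 7.50, 7.55, 7.60 and 7.71 at 24 h, 7.41, 7.49, 7.56 and 7.71 at 48 h and 7.29, 7.48, 7.54 and 7.56 at 72 h, each set below the lowest carrier sample. The rise was 2.18-fold (1.12 ± 0.08, adjusted p = 9.13e-09), at 1.08 ± 0.11 within slide 1 (adjusted p = 0.0602) and 1.18 ± 0.10 within slide 2 (adjusted p = 3.10e-06). The later falls were small: -0.32 ± 0.09 at 24 h (adjusted p = 0.00904), -0.37 ± 0.08 at 48 h and -0.44 ± 0.09 at 72 h (adjusted p = 0.000552), or 1.36-fold lower at the end. The rise of Cxcl10 was thus larger than its later fall below carrier, while for Ccl2 and Ccl7 the fall was the larger, differences that were not tested.

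Ccl5, also named RANTES, attracts T cells and monocytes. Its levels were 8.27, 8.30, 8.51 and 9.01 in carrier, 8.67, 8.91, 9.0 and 9.23 at 6 h, 9.26, 9.26, 9.34 and 9.36 at 24 h, 9.32, 9.38, 9.43 and 9.45 at 48 h and 8.53, 8.65, 8.69 and 8.81 at 72 h. The 24 and 48 h samples lay above all carrier and 6 h samples, whereas the 6 and 72 h samples overlapped with carrier, also with dye and slide taken out. The changes were 0.41 ± 0.09 at 6 h (adjusted p = 0.00210), 0.95 ± 0.11 at 24 h, 1.04 ± 0.09 at 48 h (adjusted p = 7.37e-08) and 0.31 ± 0.11 at 72 h (adjusted p = 0.0212). Ccl5 was thus 2.05-fold higher than carrier at its 48 h peak. The 6 h call was lost in a fit of the carrier and 6 h samples alone (0.42, adjusted p = 0.0620). The 72 h call was lost without carrier replicate 2_Cy3 or 2_Cy5 or 72 h replicate 2_Cy5 (0.26 to 0.29, adjusted p = 0.0585 to 0.105). It was also lost without a slide term (0.16, adjusted p = 0.328), in a fit of the carrier and 72 h samples alone (0.38, adjusted p = 0.0506) and without the brightest array (0.28, adjusted p = 0.0811). The slide term of Ccl5 was -0.35, opposite in sign to that of Ccl2 and Ccl7.

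Ccl9, a mouse chemokine that acts through Ccr1, lies next to Ccl5 and was lower than carrier from 24 h on, when Ccl5 was higher. Its levels were 10.09, 10.24, 10.57 and 10.70 in carrier and 10.24, 10.38, 10.59 and 10.70 at 6 h. They were 8.01, 8.15, 8.24 and 8.32 at 24 h, 8.24, 8.35, 8.35 and 8.35 at 48 h and 7.88, 7.94, 8.13 and 8.17 at 72 h. Carrier and 6 h samples covered the same range and every later sample lay below that range. Ccl9 was 4.77-fold lower at 24 h (-2.25 ± 0.10, adjusted p = 1.60e-11), 4.31-fold at 48 h and 5.29-fold at 72 h (-2.40 ± 0.10, adjusted p = 3.26e-12).

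Cxcl1, a neutrophil attractant that acts through Cxcr2, had the same shape at a smaller size. Its levels were 8.52, 8.92, 8.96 and 9.01 in carrier and 8.81, 8.85, 8.87 and 8.92 at 6 h. At 24 h they were 7.64, 7.65, 7.93 and 7.93, at 48 h 7.89, 7.95, 7.98 and 8.01 and at 72 h 7.77, 7.86, 7.97 and 7.99, all below the lowest carrier sample. The changes were -1.11 ± 0.10 at 24 h (adjusted p = 7.04e-08), -0.94 ± 0.09 at 48 h and -1.0 ± 0.10 at 72 h (adjusted p = 1.45e-07). Cxcl1 was thus 2.00-fold lower at the end.

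Cxcl5, another neutrophil attractant, was well above background in 3 carrier samples, 2 of 6 h, none of 24 h, 1 of 48 h and 2 of 72 h. Its levels lay between 6.30 and 7.03 over all samples, and every group overlapped with carrier, while the 24 h samples lay below those of 72 h. It was called at 48 h (-0.28 ± 0.10, adjusted p = 0.0288) and, from 48 to 72 h, in the other direction (0.34 ± 0.10, adjusted p = 0.0224), in groups where 1 and 2 of 4 samples were well above background. The 48 h call was lost without carrier replicate 1_Cy5 or 2_Cy5 or any of the 48 h replicates 1_Cy3, 1_Cy5 and 2_Cy5 (-0.26 to -0.18, adjusted p = 0.0526 to 0.249). The other call was lost without any of these 48 h replicates or 72 h replicate 1_Cy5 (0.27 to 0.31, adjusted p = 0.0596 to 0.0839).

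Cxcl12, also named SDF-1, was lower at every time. Its levels were 15.83, 15.94, 16.03 and 16.13 in carrier, 15.32, 15.41, 15.46 and 15.74 at 6 h, 15.09, 15.11, 15.25 and 15.26 at 24 h, 14.61, 14.71, 14.72 and 14.92 at 48 h and 15.03, 15.06, 15.07 and 15.30 at 72 h. No treated sample reached the lowest carrier sample, and the 48 h samples were below all others. The changes were -0.50 ± 0.08 at 6 h (adjusted p = 0.000234), -0.78 ± 0.10 at 24 h, -1.22 ± 0.09 at 48 h (adjusted p = 5.15e-09) and -0.84 ± 0.10 at 72 h (adjusted p = 1.71e-06), with a low of 2.33-fold at 48 h. A second Cxcl12 probe gave -0.41 ± 0.10, -0.62 ± 0.12, -1.17 ± 0.11 and -0.74 ± 0.12 at the same times, all called. On that probe the 6 h samples overlapped with carrier, as 6 h replicate 1_Cy5 was at 15.15 and carrier at 15.01 to 15.30.

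**Figure D3:**
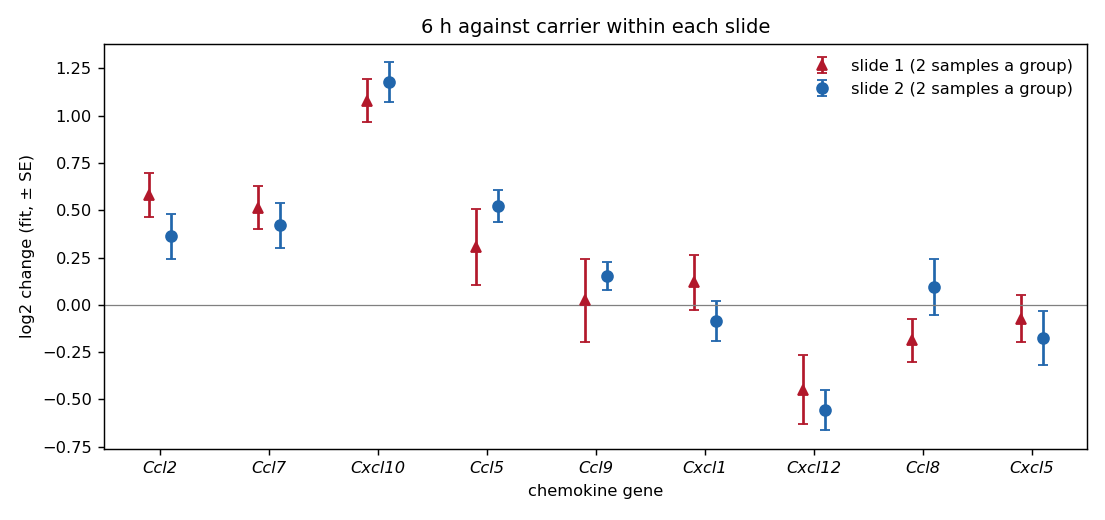
Fitted log2 change at 6 h against carrier (vertical axis, ± standard error) for each tested chemokine (horizontal axis), computed within slide 1 (triangles) and within slide 2 (circles), with 2 samples a group on each. Cxcl10 is at 1.08 and 1.18, Ccl2 at 0.58 and 0.36 and Cxcl12 at -0.45 and -0.56.

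The drop between 6 and 24 h was the largest step of the series for Ccl2, Ccl7, Ccl9, Cxcl1 and Cxcl10, but not for Ccl5 or Cxcl12. In that step 6 of 9 were called lower and 1 higher, against 16.4% of all genes tested in each direction, with a median of -1.14. Ccl9 changed by -2.33 ± 0.10 (adjusted p = 1.99e-11), Ccl7 by -2.15 ± 0.11, Ccl2 by -2.15 ± 0.10 (adjusted p = 4.29e-11), Cxcl10 by -1.44 ± 0.09 (adjusted p = 2.47e-09) and Cxcl1 by -1.14 ± 0.10. Ccl5 was the one that rose (0.54 ± 0.11, adjusted p = 0.000651). Cxcl12 changed by -0.29 ± 0.10 (adjusted p = 0.0356), and this call was lost within slide 2 (-0.26 ± 0.10, adjusted p = 0.0536) and with the second probe (-0.21 ± 0.12, adjusted p = 0.208). It was also lost without 6 h replicate 1_Cy3, 1_Cy5 or 2_Cy5 or 24 h replicate 1_Cy5 or 2_Cy3 (-0.31 to -0.24, adjusted p = 0.0539 to 0.0985).

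From 24 to 48 h little was called. Of the 9, 0 were higher and 1 was lower by limma, also at an unadjusted p under 0.05, where 5.73% and 6.34% of all genes were called. That gene was Cxcl12 (-0.44 ± 0.09, adjusted p = 0.00537), while Ccl2 and Ccl7 stood at 0.00 ± 0.09 and -0.01 ± 0.10. The intervals that go with these standard errors leave room for small changes, so the absence of a call does not show that levels were equal.

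Between 48 and 72 h, 2 were called higher and 4 lower (12.8% and 10.3% of all genes). Ccl2 fell again by 0.77 ± 0.09 on the log2 scale (adjusted p = 1.45e-05), Ccl7 by 0.80 ± 0.10 and Ccl9 by 0.29 ± 0.09 (adjusted p = 0.0263). The Ccl9 call was lost without 48 h replicate 1_Cy3 or 2_Cy3 or 72 h replicate 1_Cy3, 1_Cy5 or 2_Cy3 (-0.30 to -0.26, adjusted p = 0.0525 to 0.0790). Ccl5 fell by 0.73 ± 0.10 (adjusted p = 4.72e-05) from its peak. Cxcl12 turned up by 0.38 ± 0.09 (adjusted p = 0.00622), as did the dim Cxcl5.

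**Figure D4:**
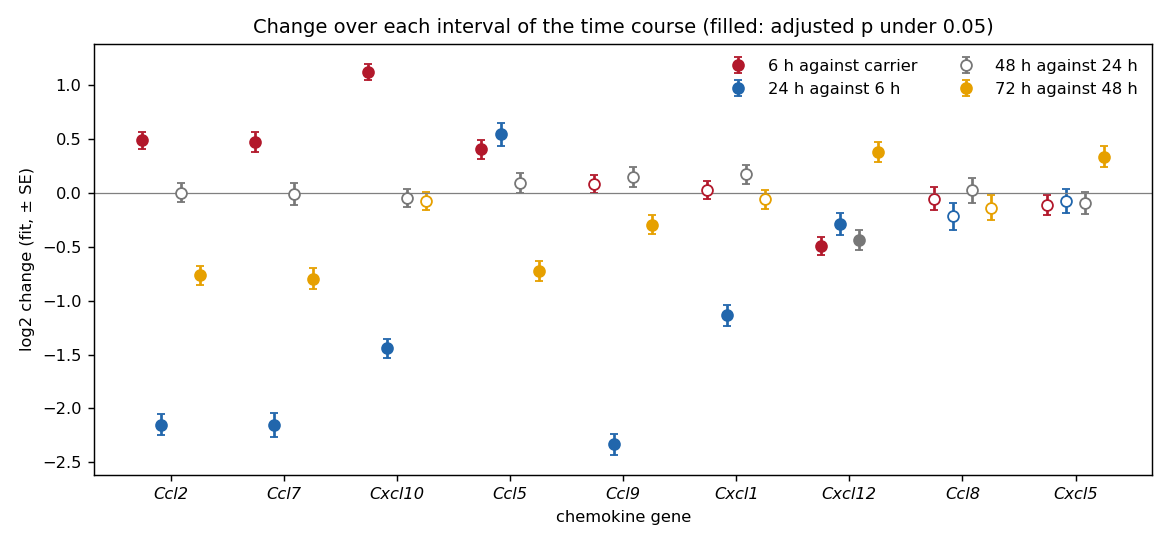
Fitted log2 change (vertical axis, ± standard error) of each tested chemokine (horizontal axis) over each interval of the time course, filled at an adjusted p under 0.05. The interval from 6 to 24 h holds the deepest falls, down to -2.33 for Ccl9, and the interval from 24 to 48 h lies near 0 for all but Cxcl12.

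Ordered by level, Ccl2 and Ccl7 ran from 6 h through carrier, then 24 and 48 h together, to 72 h, with each neighbouring pair called apart except 24 and 48 h. Cxcl10 ran from 6 h through carrier to the 3 later times, among which neither consecutive step was called. For Ccl9 and Cxcl1, carrier and 6 h were not called apart and stood above the later times. Ccl5 ran from 48 and 24 h, not called apart, through 6 and 72 h to carrier, and Cxcl12 from carrier through 6 h, 24 and 72 h to 48 h. The pairs of 6 and 72 h and of 24 and 72 h were not tested.

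Ccl2 and Ccl7 also varied together. Their levels with dye and slide taken out had r = 0.998 over the 20 samples, most of which comes from the 5 group means, and r = 0.842 for deviations from those means. These samples share arrays and one normalisation. Within groups, r of Ccl2 was 0.181 with Ccl9, 0.451 with Cxcl1, 0.294 with Cxcl12 and -0.05 with Cxcl10. Among named genes, the levels most like those of Ccl2 were Ccl7, then Vegfc, a lymphatic growth factor gene (r = 0.993), and Atp1b1, a subunit of the sodium pump (r = 0.987). Vegfc changed by 0.29, -0.68, -0.79 and -1.06 at the 4 times. Those most like Cxcl10 were Smg9 (r = 0.966), Fbxo42 (r = 0.963) and Rbm33 (r = 0.960). Those most like Cxcl12 were Ipo9 (r = 0.981), the Wnt antagonist gene Sfrp2 (r = 0.978) and Kazald1 (r = 0.975), and Sfrp2 changed by -0.73, -1.29, -2.16 and -1.39. The nearest gene was Angptl4 for Ccl9 (r = 0.987), Uaca for Cxcl1 (r = 0.980) and Arhgap44 for Ccl5 (r = 0.912). For the dim genes it was AU021092 for Ccl8 (r = 0.918) and Acss2 for Cxcl5 (r = 0.773).

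Other chemokines were mostly dark. Of 26 on the array, 7 were tested. For this list and those below, the counts stand beside these shares of all genes tested. Against carrier, 13.7% were higher and 11.1% lower at 6 h, and 21.1% and 19.1% at 24 h. At 48 h the shares were 21.5% and 20.3%, and at 72 h 25.1% and 22.6%. Over the steps they were 16.4% each way to 24 h, 5.73% and 6.34% to 48 h and 12.8% and 10.3% to 72 h. At 6 h Ccl25 alone was called (0.31 ± 0.08), and at 24, 48 and 72 h 1 was higher and 3 lower. At 24 h Ccl17 was at -1.1 ± 0.09, Cx3cl1, a membrane-bound chemokine, at -0.76 ± 0.09 and Cxcl14 at -0.59 ± 0.10. Ccl27a was higher at 24 h by 0.75 ± 0.08 and at 72 h by 0.94 ± 0.08. Cxcl2 and Cxcl3, near Cxcl1 on the chromosome, and Cxcl9, the companion of Cxcl10, were well above background in no sample.

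Of 23 chemokine receptor genes 9 were tested, and Cxcr4, Ccr1 and Cx3cr1 were among those well above background in no sample. Ccr2 was well above background in 3 samples. At 6 h 1 was lower, at 24 h 2 were lower, at 48 h 1 was higher and 2 lower, and at 72 h 1 was higher and 1 lower. These counts were near or below the shares of all genes. Ackr3, the scavenger receptor for Cxcl12, changed by -0.62 ± 0.07 at 24 h, -0.58 ± 0.07 at 48 h and -0.04 ± 0.07 at 72 h, where it missed the threshold. Cxcr6 was at -1.15 ± 0.08 at 24 h and -1.37 ± 0.08 at 72 h. Ackr2, a decoy for inflammatory CC chemokines, was called at 48 h alone (0.27 ± 0.08), a call lost without 48 h replicate 2_Cy5 (0.18, adjusted p = 0.0625), within slide 2 and with background subtracted. Ackr1, the gene called higher at 72 h (0.27 ± 0.10), lost its call under 17 of 22 alternatives (adjusted p = 0.0511 to 0.205), among them leaving out any one 72 h sample or carrier replicate 1_Cy3, 2_Cy3 or 2_Cy5.

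Genes of the NF-kB pathway and its targets were more often called higher than lower at 6 h and the reverse later. Of 20 tested, 11 were higher and 2 lower at 6 h (median 0.21), 3 and 12 at 24 h (median -0.36), 3 and 9 at 48 h (median -0.11) and 3 and 13 at 72 h (median -0.33). From 6 to 24 h 0 rose and 14 fell by limma (median -0.48), or 1 and 15 at an unadjusted p under 0.05. Relb, a subunit of the non-canonical pathway, rose by 0.81 ± 0.05 at 6 h and was at -0.30 ± 0.06 at 24 h. Nfkbia, which encodes the inhibitor IkB alpha and is itself an NF-kB target, was at 0.22 ± 0.05 and -0.61 ± 0.06 at these times and at -0.96 ± 0.06 at 72 h. Vcam1, an adhesion molecule gene, was at -0.80 ± 0.07 at 24 h. At 6 h it was at -0.17 ± 0.06, a call lost under 13 of 23 alternatives (adjusted p = 0.0538 to 0.206), among them leaving out carrier replicate 1_Cy3, 2_Cy3 or 2_Cy5 or 6 h replicate 1_Cy3, 1_Cy5 or 2_Cy5. Ikbkg, the kinase scaffold, was higher throughout, by 0.59 ± 0.05 at 48 h. Whether NF-kB has a part in the chemokine changes was not tested.

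**Figure D5:**
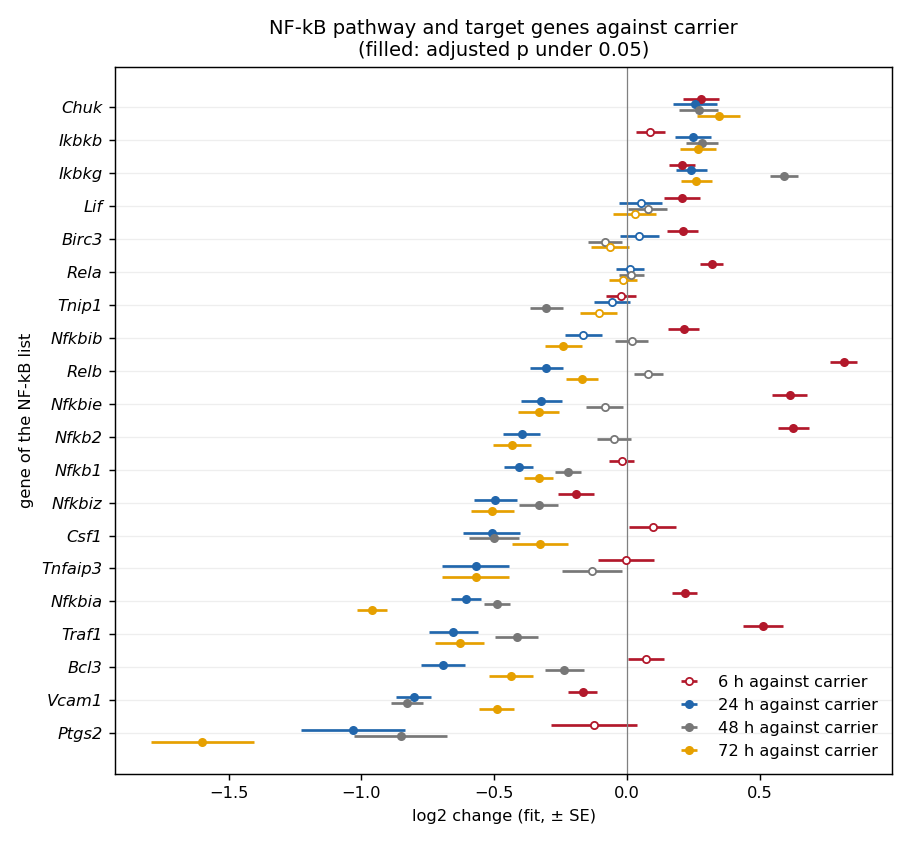
Fitted log2 change from carrier (horizontal axis, ± standard error) of the 20 tested genes of the NF-kB list (vertical axis, ordered by the 24 h change) at the 4 times, filled at an adjusted p under 0.05. At 6 h 11 genes are higher and 2 lower, with Relb at 0.81, and at 24 h 3 are higher and 12 lower.

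Of 16 tested cytokines and receptors that can induce chemokines, 4 were higher and 1 lower at 6 h (median 0.00), 2 and 5 at 24 h (median -0.14), 3 and 10 at 48 h (median -0.34) and 4 and 6 at 72 h (median -0.02). Il1r1, the signalling receptor of interleukin-1, was at -0.37 ± 0.07 at 6 h and at -1.05 ± 0.08 at 24 h. Lifr was at -0.76 ± 0.07 at 24 h. The interferon receptor genes Ifnar1 and Ifnar2 were higher at 24 h, by 0.49 ± 0.07 and 0.34 ± 0.06. A part of these cytokines and receptors in the chemokine changes was not tested.

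Interferon response genes were counted because interferon induces Cxcl10. Of 18 tested, 4 were higher and 3 lower at 6 h (median 0.10), 8 and 3 at 24 h (median 0.21), 7 and 3 at 48 h (median 0.06) and 10 and 3 at 72 h (median 0.25). Whether interferon has a part in the Cxcl10 changes was not tested. Bst2, which tethers virus particles, was at 0.15 ± 0.07 at 6 h, short of the threshold, and rose by 1.07 ± 0.08 at 72 h. The immunoproteasome gene Psmb8 rose by 0.83 ± 0.09 at 72 h. The transcription factor gene Irf1 was lower at all 4 times, at -0.70 ± 0.07 at 72 h, and Ddx58, the RNA sensor RIG-I, was at -0.65 ± 0.07 at 24 h.

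Chemokine transcripts are short-lived, and 10 genes of proteins that set the decay of cytokine transcripts were tested. At 6 h 2 were higher and 1 lower (median 0.03), at 24 h 1 and 4 (median -0.11), at 48 h 1 and 5 (median -0.15) and at 72 h 1 and 4 (median -0.11). Arid5a, which stabilises interleukin-6 transcripts, rose by 1.83 ± 0.07 at 6 h and was at 0.47 ± 0.08 at 24 h. Zfp36l1, a decay factor for AU-rich transcripts, and Zc3h12a, the nuclease Regnase-1, were at -0.29 ± 0.07 and -0.28 ± 0.10 at 24 h. The Zc3h12a call was lost under 6 of 23 alternatives (adjusted p = 0.0552 to 0.124), among them leaving out carrier or 24 h replicate 2_Cy3. Zfp36l2 was higher at 6 h (0.28 ± 0.05). Transcript decay itself was not measured, and its part in the chemokine changes was not tested.

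Most fibroblast markers were lower than carrier from 24 h on. Of 12, 3 were lower at 6 h (median -0.17), 10 at 24 h (median -0.50) and 11 at 48 h (median -0.96), and 1 was higher and 9 lower at 72 h (median -0.40). At an unadjusted p under 0.05 these counts of lower genes were 5, 10, 11 and 9. Their steps differed from those of most chemokines. From 24 to 48 h 7 markers fell (median -0.46), when Cxcl12 was the only chemokine called. From 48 to 72 h 9 rose, as Cxcl12 and the dim Cxcl5 did, while Ccl2, Ccl5, Ccl7 and Ccl9 fell. Pdgfra was at -0.50 ± 0.06 at 6 h and -1.1 ± 0.06 at 48 h, Col1a1 at -1.46 ± 0.08, Postn at -1.23 ± 0.09 and Pdgfrb at -0.83 ± 0.07 at 48 h. The summed level of the 12, on a log2 scale, was 19.80 to 20.24 in carrier, 19.56 to 20.06 at 6 h, 19.57 to 19.86 at 24 h, 19.16 to 19.73 at 48 h and 19.65 to 19.90 at 72 h. Their part in the chemokine changes was not tested.

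Of 7 tested macrophage and leukocyte markers, 1 was higher at 6 h, 1 was higher and 3 lower at 24 h, and 1 was higher and 2 lower at 48 and at 72 h. Cd14, a coreceptor that fibroblasts also express, was at -0.71 ± 0.08 at 24 h and -1.35 ± 0.08 at 72 h, and Cd74, the invariant chain of class II antigen presentation, was at 1.62 ± 0.11 and 2.30 ± 0.11. Lyz2 and Itgam were at -0.24 ± 0.07 and -0.37 ± 0.07 at 24 h, and the Lyz2 call was lost without carrier replicate 2_Cy5 (-0.17, adjusted p = 0.0758). The Itgam call was lost with the mean of all its probes (-0.12, adjusted p = 0.126) and without a slide term (-0.19, adjusted p = 0.232). The summed level of the 12 on the array was 15.05 to 15.56 in carrier, 14.99 to 15.50 at 6 h, 15.13 to 15.19 at 24 h, 15.19 to 15.42 at 48 h and 15.19 to 15.32 at 72 h. The part of Cd14 and Cd74 in the chemokine changes was not tested.

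Of 3 tested endothelial markers 0 were called at 6 and 48 h by limma, with 1 at an unadjusted p under 0.05 at each, 2 were lower at 24 h and 1 was higher and 1 lower at 72 h. Pecam1 and Kdr were at -0.22 ± 0.06 and -0.26 ± 0.09 at 24 h and Vwf at 0.24 ± 0.08 at 72 h. These calls were lost under 4, 5 and 4 of 23 alternatives, and that of Kdr turned under another. The samples whose absence ended a call were carrier 2_Cy3 for Pecam1, carrier 2_Cy5 and 24 h 1_Cy5 and 2_Cy3 for Kdr, and carrier 2_Cy5 and 72 h 1_Cy5 for Vwf. The gene lower at 72 h was Pecam1 (-0.17 ± 0.06), a call lost under 11 of 23 alternatives (adjusted p = 0.0522 to 0.897). Among them were leaving out carrier replicate 1_Cy5 or 2_Cy3 or 72 h replicate 1_Cy3, 1_Cy5 or 2_Cy5. The 8 endothelial genes summed to at most 12.85 in carrier, 11.98 to 12.70 at 6 h, 12.42 to 12.63 at 24 h, 12.66 to 12.82 at 48 h and 12.63 to 12.70 at 72 h. Of 4 tested epithelial markers, 1 was lower at 6 and 24 h and 1 higher at 48 and 72 h, in each case Krt19 (-0.37 ± 0.09 at 24 h and 0.55 ± 0.08 at 48 h). Its 6 h call was lost under 9 of 23 alternatives, among them without carrier replicate 1_Cy5 or 2_Cy3 or 6 h replicate 1_Cy3 or 1_Cy5. From 24 to 48 h Krt19 rose by 0.91 ± 0.08. Krt5, Krt14 and Cldn4 were not called at any time.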

How the data were processed

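RNA was measured on two-colour Agilent arrays with 1 sample per channel. Per array, the deposited files give spot intensity and local background as medians over pixels, before any normalisation. They were made with Agilent's Feature Extraction software, release 10.7.3.1 on the first slide and 11.0.1.1 on the other, per the file headers, so the slide effect includes the release. The authors' deposited log2 values served as an alternative. R 2.15 and limma appear in the submitters' processing notes, without the steps. The array's annotation is mm9, per the file headers.

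Signals were corrected with normexp (offset 50), adjusted by loess inside arrays and by Aquantile across them, in R 4.3.3 with limma 3.58.1, steps that presume a largely stable transcriptome. The spots of a probe were averaged. Probes were named through RefSeq (GRCm38.p6). A probe entered the test if 4 of 20 samples or more had it well above background, and the brightest stood for its gene, which left 24241 genes and transcripts, 14237 of them named. limma was fitted with group, dye and slide terms and the array as random block (correlation 0.249, with 13 residual and 4.50 prior degrees of freedom). Precision is limited by having 10 arrays. The labels do not say whether the independent samples were separate cultures, and p-values reflect only how much these samples vary. The model was tested on simulated data.

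The 10 chemokines and the lists (other chemokines, receptors, inducing cytokines, NF-kB, interferon, transcript decay, cell type markers) were chosen with earlier results of these data known. Named genes were the 10, up to 4 per list by smallest adjusted p against carrier, and those with the highest correlation with a chemokine over 20 samples. Genes named to say which were undetected or uncalled, and Ccl25, were named after their values were seen. Alternatives covered background correction, normalisation, the filter, probe choice, model terms and left-out samples or arrays. Fits that left out 1 sample kept the array correlation of the full fit.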

Additional observations from a re-analysis of the deposited data

Results flagged for a closer look

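Among 45 sets of 4 samples, 3 held a sample set apart from the other 3 by more than Dixon's limit, where chance gives about 1 in 20. Ccl9 in 48 h replicate 2_Cy3 was at 8.24 against 8.35 in each of the other 3. Cxcl12 in 72 h replicate 1_Cy3 was at 15.30 against 15.03 to 15.07. Ccl8 in 72 h replicate 2_Cy5 was at 6.29 against 6.44 to 6.46, all 4 values being below the mark for well above background.

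For 3 genes the change from carrier differed in direction between 6 and 24 h, with the difference itself past the threshold in limma: -2.15 for Ccl2, -2.15 for Ccl7 and -1.44 for Cxcl10 on the log2 scale.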

How the results depend on the processing

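The counts of chemokines called stayed within 1.5 times their value under all alternatives run. Leaving out 1 sample gave 5 at 6 h, 7 to 8 at 24 h, 7 to 9 at 48 h and 6 to 8 at 72 h against carrier, and over the steps 6 to 7, 1 and 4 to 6. Among log2 changes of single chemokines under the other alternatives, 891 of 931 kept their direction, if called, and their side of the threshold, 33 lost a call, 7 gained one and 0 called changes turned. With 1 sample left out, 478 of 504 did, 23 lost a call and 3 gained one. The lost calls were those of Ccl5 at 6 and 72 h, Ccl7 at 6 h and from 48 to 72 h, Ccl8, Ccl9 from 48 to 72 h, Cxcl5 and Cxcl12 from 6 to 24 h. Besides the losses given with the results, background subtraction and a fit of the 2 groups alone ended the Ccl8 call at 72 h. No scaling between arrays and no dye term ended that of Ccl9. Both other background corrections, the authors' values and a fit of the 2 groups alone were among those that ended both calls of Cxcl5. No dye term and no random block also ended its 48 h call. Of 22 alternatives, the Cxcl5 call held in 10 at 48 h and in 12 from 48 to 72 h. The Cxcl12 call was also lost under the authors' values, background subtraction, no or quantile scaling, no filter, the mean of probes, a fit of the 2 groups alone and without the brightest array (adjusted p = 0.0508 to 0.101). Of 2328 changes of named list genes, 73 lost a call and 11 gained one, and of 1248 with 1 sample left out 38 lost and 11 gained one. Calls of Ikbkg, Irf1 and Nfkbia at 6 h were among those lost in a fit of the 2 groups alone. Of the list genes, the change of Kdr at 24 h turned to 0.000589 without a slide term. Medians of all genes moved by under 0.1 between scalings. The medians of the NF-kB, interferon, transcript decay and fibroblast lists against carrier kept their sign under the 5 other scalings, while those of the receptor list at 24 and 72 h, of the inducing cytokines at 6 and 72 h and of the leukocyte markers at 6 h, all near 0, did not.

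Same-numbered samples of the same dye did not pair across groups. Whether the same number in Cy3 and Cy5 within a group marks related samples was not examined. Of 40 pairs of the same number and dye in different groups, 1 had residuals correlated above 0.1 (median -0.040), and 0 of 20 samples correlated best with their own number. With the number within dye as a replicate block, 5, 7, 8 and 8 chemokines were called against carrier and 7, 1 and 6 over the steps, as without it. Ccl8, Cxcl5 and Ccl11 lie near background, which limits what their values can show.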

Other observations

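Some other secreted signals and regulators in the lists also changed, not all in the way Ccl2 did. They were chosen after their values were seen and do not show how often list genes moved with Ccl2. Il6, an inflammatory cytokine gene, was at 0.27 ± 0.15 at 6 h, short of the threshold, and at -0.94 ± 0.17 at 24 h, -0.73 ± 0.16 at 48 h and -0.63 ± 0.17 at 72 h, all called by limma. Ptgs2, which encodes the prostaglandin-producing enzyme COX-2, was at -0.12 ± 0.16 at 6 h, also short of it, and was called at -1.03 ± 0.20 at 24 h and -1.60 ± 0.20 at 72 h. Csf1, the macrophage growth factor gene, was at -0.51 ± 0.11 at 24 h. Nfkb2, Nfkbie and Traf1, an NF-kB subunit, an inhibitor and an adaptor, rose at 6 h by 0.62 ± 0.06, 0.61 ± 0.06 and 0.51 ± 0.08 and were at -0.40 ± 0.07, -0.32 ± 0.08 and -0.65 ± 0.09 at 24 h. The interferon gamma receptor gene Ifngr1 was at 0.32 ± 0.06 and -0.38 ± 0.07 at these times. Ifit1 and Isg15, both interferon-stimulated, were higher than carrier at all 4 times, at 0.57 ± 0.10 and 0.34 ± 0.07 at 6 h and 0.35 ± 0.13 and 0.72 ± 0.08 at 72 h.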
